A study of Mus musculus and Mus musculus x Mus spretus with 8 samples.

Results

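Adenosine and ATP signalling genes were examined in 8 single glomus cells. These cells come from the mouse carotid body, a small organ beside the carotid artery that senses oxygen in arterial blood. The 10 genes were chosen by name from 24060 gene symbols in each cell's table. They are the adenosine receptor genes Adora1, Adora2a and Adora2b, the metabotropic nucleotide receptor genes P2ry1 and P2ry12, and the ATP-gated channel genes P2rx2 and P2rx3. The other members are the ectonucleotidase genes Entpd3 and Nt5e and the nucleoside transporter gene Slc29a1. All 10 symbols were found in the tables. Every cell came from a wild type pup at postnatal day 4 to 5, and no cell had been treated according to the labels. Cells 1 and 3 to 8 carry the strain label C57BL/6, whereas cell 2 is labelled C57BL/6 X SPRET/EiJ, so its other parent strain is SPRET/EiJ, derived from Mus spretus. The cells were picked for expression of Th, Uchl1 and Kcnk3, and the labels name no animal for any cell. The 8 cells therefore count as 1 sample, no test between conditions was possible, and the spread given here is the spread between these cells.

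ATP is a transmitter of the carotid body. Glomus cells release it onto the endings of the sensory nerve, where channels built from the P2rx2 and P2rx3 products open and excite the nerve. Outside the cell, ectonucleotidases such as the Entpd3 product cut ATP and ADP to AMP, and the Nt5e product cuts AMP to adenosine. Adenosine acts on receptors that raise cyclic AMP through the stimulatory G protein (Adora2a, Adora2b) or lower it through inhibitory G proteins (Adora1). The P2ry12 product, best known from platelets and microglia, binds ADP and couples to inhibitory G proteins, whereas the P2ry1 product binds ADP and couples to the Gq family. The Slc29a1 product, the equilibrative nucleoside transporter ENT1, carries adenosine across the cell membrane in either direction.

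The regions upstream of 3 of the genes are shown, because P2ry12 and Slc29a1 were expressed in the same 7 cells and Entpd3, which shares a motif with P2ry12, had no reads. Adora2a was expressed in these 7 cells too but had no entry among the promoter sequences, so no region of it is shown. Each run holds the 250 bases before a transcription start, 5′ to 3′ on the gene's strand, from RefSeq on build GRCm38.p6. The regions are chr3:59262986-59263235 (minus strand) for P2ry12, chr17:45599619-45599868 (minus strand, the most upstream of 8 starts) for Slc29a1 and chr9:120539568-120539817 (plus strand) for Entpd3. Capitals mark matches on either strand to the core of the hypoxia-inducible factor motif, ACGTG or GCGTG. Where CACGTG is in capitals, ACGTG matches on both strands and the matches overlap.
P2ry12: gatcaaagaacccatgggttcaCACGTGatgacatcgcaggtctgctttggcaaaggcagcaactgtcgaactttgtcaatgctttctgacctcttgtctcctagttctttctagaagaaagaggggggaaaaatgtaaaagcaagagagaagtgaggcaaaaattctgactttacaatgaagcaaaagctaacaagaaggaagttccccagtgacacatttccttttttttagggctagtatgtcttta
Slc29a1: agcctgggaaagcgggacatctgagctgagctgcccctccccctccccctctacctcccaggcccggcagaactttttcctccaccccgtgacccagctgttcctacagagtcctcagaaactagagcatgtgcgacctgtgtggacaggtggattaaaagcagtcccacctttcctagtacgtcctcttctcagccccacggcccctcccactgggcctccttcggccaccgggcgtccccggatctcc
Entpd3: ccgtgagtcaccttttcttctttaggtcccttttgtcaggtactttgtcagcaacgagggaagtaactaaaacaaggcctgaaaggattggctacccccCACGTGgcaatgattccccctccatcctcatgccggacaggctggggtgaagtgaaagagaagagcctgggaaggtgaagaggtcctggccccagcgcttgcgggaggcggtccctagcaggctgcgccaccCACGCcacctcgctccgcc

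Of the 10 members, 7 matched the promoter table, and Adora2a, P2rx2 and P2rx3 did not. A core match lay in the printed Entpd3 and P2ry12 windows and in the windows of the most upstream starts of Adora1, Adora2b, P2ry1 and Nt5e. It was not in the window of the most upstream Slc29a1 start, although 4 of its 8 starts held one. Over all 32851 promoters of the table, 38.6% held ACGTG or GCGTG in the same 250 bases. The hexamer CACGTG, present in the P2ry12 and Entpd3 windows, was in 6.02% of them. It was not a motif of the search itself, and Entpd3 was shown because it shares it, so no enrichment can be read from these windows. The hexamer began 228 bases before the start of P2ry12 and 151 bases before that of Entpd3. The motifs TGACG, the core of the cyclic AMP response element, and TATAAA, searched on both strands, were in none of the 7 windows, against 17.8% and 12.4% of all promoters. A match is a run of letters only, and it was found upstream of members with and without reads. The P2ry12 window had a GC content of 41.6% and the Slc29a1 window 62.4%, around a median of 52.4% over all promoters. The other matched windows ran from 58.8% (Entpd3) to 72% (Nt5e).

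Reads of the 10 members fell on 3 genes, and the other 7 had none in any cell. Adora2a, P2ry12 and Slc29a1 were each detected in 7 of 8 cells, where detected means at 1 RPM (reads per 1000000 counted reads of the cell) or more. A share of 7 of 8 cells is 87.5%, with an exact 95% binomial interval of 47.3% to 99.7%. This interval takes the 8 cells as independent draws, which the labels do not establish, and does not cover the spread between animals. Of all symbols, 14.2% passed the same limit in at least 6 cells, and these 3 genes are 3 of 10 members. The genes with 0 reads in all 8 cells were Adora1, Adora2b, P2ry1, P2rx2, P2rx3, Entpd3 and Nt5e, while 51.7% of all symbols had 0 reads in every cell. If the cells are again taken as independent draws, 0 of 8 cells allows a share of cells with reads of up to 37.5% (3 of 8). This is no limit on the share of cells that express the gene. Within a cell, a gene with 0 reads may have a true level of as much as 3 reads, equal to 0.0993 RPM in cell 2 (most reads) and 0.758 RPM in cell 1 (fewest), for counting error only.

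**Figure D1:**
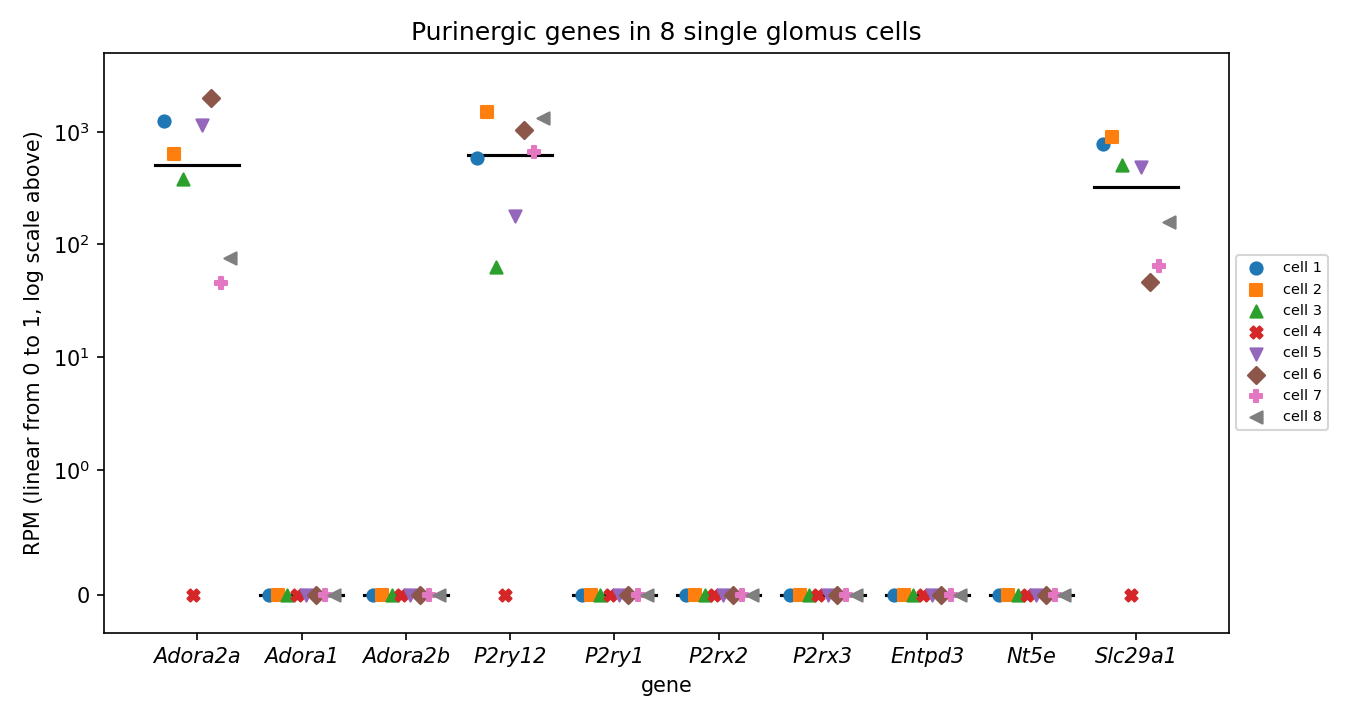
Level of the 10 genes in each of the 8 cells in RPM (vertical axis, linear from 0 to 1 and logarithmic above), with 1 symbol per cell and a black line at the median. Adora2a, P2ry12 and Slc29a1 lie above 45 RPM in 7 cells and at 0 in cell 4, and the other 7 genes lie at 0 in every cell.

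The tables rest on 3960200 to 30218206 counted reads per cell, and the deepest is cell 2, the hybrid. No cell lacked any of the 3 selection genes, with Th at 764 to 3785 RPM, Uchl1 at 331 to 2201 RPM and Kcnk3 at 199 to 2212 RPM. The cells were picked for these genes, so this is a check of the labels only. Of the 10 glomus cell markers used here, Slc18a2 had 0 reads in cell 7 and Olfr78 was at 0.202 RPM in cell 4, and all other values were above 1 RPM. Their summed level was 10084 to 18996 RPM. Of 51 markers of other cell types, 38 had 0 reads in every cell and 8 reached 1 RPM in any cell. Over all 24060 symbols, 51.7% had 0 reads in every cell and 10768 reached 1 RPM in any cell. The highest pericyte or smooth muscle marker, Pdgfrb, was at 350 RPM in cell 3, 94.2 in cell 7, 72.2 in cell 5 and 31.2 in cell 6. It was under 1 RPM in the remaining cells. The other markers of that list were low: Acta2 reached 8.48 RPM in cell 6 and Tagln 3.20 RPM in cell 3. Myh11 and Cspg4 stayed under 1 RPM in every cell, and Des was at 0 RPM in every cell. Cell 4 had 0 reads for 173 (12.3%) of the 1402 genes detected in all 7 other cells. Counted in the same way, cell 5 had 0 reads for 184 (12.6%) of 1456, so cell 4 did not stand alone by this measure.

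Adora2a was the only adenosine receptor gene with reads in any of these cells. It lies on chromosome 10 at 75316877 to 75334784 of GRCm38, plus strand, and its longest transcript has 3 exons. Its level was 1251 RPM in cell 1, 633 in cell 2, 379 in cell 3, 0 in cell 4, 1152 in cell 5, 1975 in cell 6, 45.6 in cell 7 and 75.6 in cell 8. Cells 1, 5 and 6 were high, cells 7 and 8 were low, and cell 4 had no read, which allows up to 0.607 RPM. The median was 506 RPM over 8 cells and 633 RPM without cell 4, and the counts behind the 7 values were 296 to 19133 reads. Among these 7 cells the highest value was 43.3 times the lowest. Of the 1402 genes detected in all 7, 37.4% had a ratio at least as wide, and the median ratio was 23.6.

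Adora1, on chromosome 1 at 134199223 to 134235431, and Adora2b, on chromosome 11 at 62248984 to 62266453, had 0 reads in every cell. Levels of different genes were compared as RPM per kb of the longest annotated transcript. On this scale Adora2a had a median of 195 RPM per kb over the 8 cells. In the 7 cells with reads, Adora2a was at least 70.1-fold higher than Adora2b, the lowest bound being that of cell 7 and the median bound 1174-fold. Against Adora1 the bound was at least 189-fold in cell 7 and at least 3161-fold at the median. The Adora1 bounds are uncertain, since 1162 exon bases overlap Mybph of the other strand, which also had 0 reads in every cell. The only near-identical match of the Adora1 transcript, over 23.6% of it, is to this overlapping gene, so it is not a separate limit. Each bound sets the silent gene at 3 reads in that cell. The last relative, Adora3, also had 0 reads in every cell, but 31.3% of its transcript is near-identical to transcripts of other genes, so its level is uncertain. The transcripts of Adora2a and Adora2b hold no such stretch.

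P2ry12 was the only gene of the P2X and P2Y receptor families detected in at least 6 of these cells. It lies on chromosome 3 at 59216272 to 59262871, minus strand. Its level was 583 RPM in cell 1, 1495 in cell 2, 63.1 in cell 3, 0 in cell 4, 179 in cell 5, 1039.5 in cell 6, 664 in cell 7 and 1317 in cell 8. Cells 2, 6 and 8 were high and cells 3 and 5 were low among the cells with reads. The median was 623 RPM, or 664 RPM without cell 4, from 335 to 45181 reads in the 7 cells. The highest value was 23.7 times the lowest of the 7, and 49.9% of the genes detected in these cells had a ratio at least as wide.

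P2ry1, on chromosome 3 at 61002795 to 61008982, had 0 reads in all 8 cells. Per kb, P2ry12 was at least 185-fold higher than P2ry1 in cell 3, the lowest bound, and at least 2381-fold higher at the median of the 7 cells. These bounds are uncertain, since 992 exon bases of P2ry1 overlap Gm37035, an antisense gene not analysed here. The only near-identical match of the P2ry1 transcript, over 25.5% of it, is to this overlapping gene, so it is not a separate limit. P2ry12 lies within Med12l, a gene of the other strand with which it shares 9 bases of exon, and the strand setting of the authors' counting is not given in the sources used here. Med12l was at 256 RPM in cell 1, 10.7 RPM in cell 2, 2.07 RPM in cell 3 and under 0.3 RPM in the other 5 cells. P2ry12 thus reached 664 and 1317 RPM in cells 7 and 8, where Med12l had 0 and 0.290 RPM. Its neighbours in the same stretch of chromosome 3 were looked at after the values were seen. P2ry13 had 0 reads throughout, P2ry14 reached 13.9 RPM in cell 1 and 2.01 RPM in cell 5, and Gpr171 reached 55.6 RPM in cell 4 and 2.90 RPM in cell 8.

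P2ry12 also marks microglia, macrophages and platelets, so the markers of those cells were read beside it. All 8 macrophage or microglia markers, Ptprc, Csf1r, Aif1, Cx3cr1, Tyrobp, C1qa, C1qb and Trem2, had 0 reads in every cell. Of 6 platelet or megakaryocyte markers 5 had 0 reads, Pf4 and Itga2b among them, and Gp1bb was at 14.3 RPM in cell 7 and 2.03 RPM in cell 8. The summed level of the platelet list was 0 RPM in the other 6 cells, in 5 of which P2ry12 lay between 63.1 and 1495 RPM.

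The 2 ATP-gated channel genes had no reads. P2rx2 (chromosome 5, 110339812 to 110343212) and P2rx3 (chromosome 2, 84998583 to 85037462), whose products carry the response of the sensory nerve to ATP, were at 0 in all 8 cells. Neither transcript has a near-identical copy in another gene. P2rx3 shares 51 bases of exon with Ssrp1 on the other strand, which was at 0 to 472 RPM. Among the other P2X genes, P2rx4 reached 6.09 RPM in cell 2 and 1.08 RPM in cell 7, and P2rx1, P2rx5, P2rx6 and P2rx7 had 0 reads. Of the 7 sensory neuron markers 6 had 0 reads in every cell.

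Neither member that encodes an enzyme of extracellular ATP breakdown was detectable at this depth. Entpd3 (chromosome 9, 120539818 to 120568327) and Nt5e (chromosome 9, 88327197 to 88372092) had 0 reads in all 8 cells. So did Entpd1, Entpd2 and Entpd8, the other surface enzymes of the Entpd family, and Alpl, an alkaline phosphatase that also makes adenosine from AMP. The Entpd2 level is uncertain, since 31.8% of its transcript is near-identical to Npdc1. Other genes of this route had reads in cell 6, namely Enpp1, whose product cuts ATP to AMP, at 13.1 RPM (93 reads) and Acpp, whose product makes adenosine from AMP, at 2.83 RPM (20 reads). Of 14 ectonucleotidase and related genes none was detected in at least 6 cells, 6 were detected in 4 cells or fewer and 8 had 0 reads. Over all symbols, 14.2% were detected in at least 6 cells and 51.7% had 0 reads in every cell. Entpd4 is among the latter, but its level is uncertain, since near-identical copies cover all of its transcript. The highest medians were those of Enpp2, which encodes the lipid enzyme autotaxin, at 0 to 154 RPM in 4 detecting cells of 8, and of Entpd7, an enzyme of internal membranes, at 0 to 43.8 RPM. Entpd5, chosen after its values were seen, reached 309 RPM in cell 4 and 2.68 RPM in cell 5. Entpd2, which marks the glia-like type II cells of the carotid body, had no read. Of the 8 markers of those cells, 2 reached 1 RPM in any cell, among them Fabp7 at 71.6 RPM in cell 2.

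Slc29a1, the third expressed member, lies on chromosome 17 at 45585200 to 45599606, minus strand. Its level was 780.3 RPM in cell 1, 899 in cell 2, 512 in cell 3, 0 in cell 4, 489 in cell 5, 46.4 in cell 6, 64.7 in cell 7 and 159.8 in cell 8. The values fell into a high set, cells 1, 2, 3 and 5, and a lower set, cells 6, 7 and 8, with cell 4 at 0. The median of 324 RPM lies in the gap between these sets. It fell to 159.8 RPM when cell 1, 2, 3 or 5 was left out and rose to 489 RPM when cell 4, 6, 7 or 8 was. The counts were 328 to 27152 reads in the 7 cells, and 54.1% of the genes detected in them had a ratio of highest to lowest as wide as its 19.4. Gm17080, an antisense gene not analysed here, shares 275 exon bases with Slc29a1. The only near-identical match of the Slc29a1 transcript, over 12.5% of it, is to this overlapping gene.

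Slc29a1 is also high in blood vessel lining in other tissues, so endothelial markers were read beside it. Pecam1, Cdh5, Kdr, Tek and Emcn had 0 reads in all 8 cells. Cldn5, the last of the 6 markers, was at 720 RPM in cell 1, 2730 in cell 2, 851 in cell 3, 415 in cell 5, 539 in cell 6 and 55.3 in cell 8, and had 0 reads in cells 4 and 7. Cldn5 was thus high in the cells with high Slc29a1 and also in cell 6, where Slc29a1 was low.

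A related transporter gene, Slc29a4, whose product carries monoamines and adenosine, was detected in 6 cells. It was at 463 RPM in cell 1, 473 in cell 3, 116 in cell 4, 20.5 in cell 6, 138 in cell 7 and 186 in cell 8, and had 0 reads in cells 2 and 5. Per kb, Slc29a1 was the higher of the pair in 6 cells and the lower in 2. The median difference was 0.76 on the log2 scale, with an SD of 4.58 and a range of -5.41 to 8.67. The low end was cell 4, which had Slc29a4 and no Slc29a1. Slc29a3 was detected in cell 7 at 2.93 RPM, and Slc29a2, Slc28a1 and Slc28a3 had 0 reads. Slc28a2 had 0 reads too, but 99.8% of its transcript has a near-identical copy.

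Ordered by the median level per kb, P2ry12 came first with 266 RPM per kb, then Adora2a with 195 and Slc29a1 with 146, and the 7 members without reads shared the lowest place. The ranges were 0 to 638, 0 to 761 and 0 to 405 RPM per kb, so neighbours in this order did not differ beyond their spread. The order was the same with merged exon lengths and with no length adjustment. Whether reads cover whole transcripts is not given in the sources used here, so the length adjustment is approximate.

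**Figure D2:**
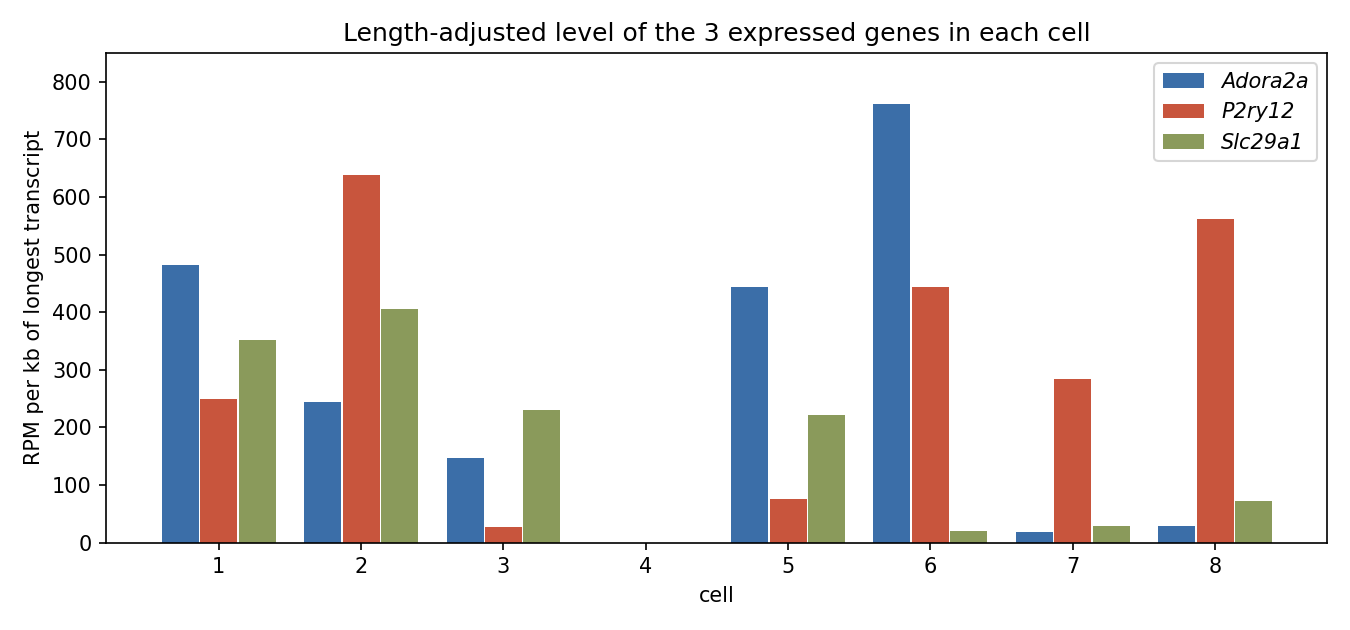
Level of Adora2a, P2ry12 and Slc29a1 in RPM per kb of longest transcript (vertical axis, from 0) in each cell (horizontal axis), 1 bar per gene. Adora2a is the tallest bar in cells 1, 5 and 6, P2ry12 in cells 2, 7 and 8, and Slc29a1 in cell 3, and cell 4 has none.

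The balance between the 2 receptor genes differed from cell to cell. Within cells, the difference of Adora2a minus P2ry12 in log2(RPM per kb + 1) was 0.95 in cell 1, 2.40 in cell 3, 2.52 in cell 5 and 0.78 in cell 6. It was -1.38 in cell 2, -3.94 in cell 7 and -4.22 in cell 8, and 0 in cell 4, where neither gene had reads. The gene of the receptor that raises cyclic AMP thus led in 4 cells and that of the receptor that lowers it led in 3. The median was 0.39 (SD 2.61). It moved to 0 when cell 1, 3, 5 or 6 was left out and to 0.78 when cell 2, 4, 7 or 8 was. Over the 7 cells with reads, Spearman's rho was -0.07 between Adora2a and P2ry12, 0.07 between Adora2a and Slc29a1 and -0.04 between P2ry12 and Slc29a1. These correlations describe 7 cells that differ in depth and may share animals.

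Cell 4 was the cell without reads for each of the 3 expressed members. Of the genes detected in all 7 other cells, 12.3% had 0 reads in cell 4. Of the 451 genes at 45 RPM or more in all 7, a limit set after the members' values were seen, 7.76% did. The same cell had 1 read (0.202 RPM) of the olfactory receptor gene Olfr78, which lay between 1203 and 4118 RPM in the other 7. Whether a transcript was absent from cell 4 or lost before amplification cannot be told apart.

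The hybrid cell, cell 2, had the highest P2ry12 and the highest Slc29a1 of all 8 cells. P2ry12 lay 0.18 log2 units and Slc29a1 0.20 log2 units above the next cell, and Adora2a lay inside the range of the other cells. Of the 5936 genes detected in at least 4 cells, 13% were highest in cell 2 and 6.1% lowest. None of the 3 lay more than 2 log2 units outside the range of the C57BL/6 cells. With 1 hybrid cell, strain and cell cannot be told apart, and cell 2 is also the deepest.

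The rest of the pathway was read from whole gene families, 79 genes with the members included, of which 21 (26.6%) were detected in at least 6 cells and 35 had 0 reads in every cell. Without the G protein and adenylyl cyclase genes, 12 of 61 (19.7%) were detected in at least 6 cells and 33 had 0 reads in every cell. Of all symbols, 14.2% were detected in at least 6 cells and 51.7% had 0 reads in every cell. At least 6 cells detected 1 of 4 adenosine receptor genes, 1 of 8 P2Y receptor genes, 0 of 7 P2X receptor genes, 0 of 14 ectonucleotidase genes and 2 of 7 nucleoside transporter genes. The same limit was passed by 7 of 13 genes of adenosine metabolism inside the cell and 8 of 9 G protein genes. It was passed by 1 of 8 genes of ATP storage and release and 1 of 9 adenylyl cyclase genes. With 1 cell left out, and 6 of the remaining 7 required, the 7 metabolism genes became 4 without cell 1, 4, 5 or 8 and 5 or 6 otherwise. The 2 transporter genes became 1 without cell 1, 3, 4, 6, 7 or 8, and the 1 gene of ATP storage and release became 0 without cell 1, 2, 4, 5, 7 or 8. The share of all symbols passing 6 of 7 cells is not given here, so these smaller counts cannot be set against the 14.2%. The median gene of the 79 had a median level of 0 RPM, as did the median gene of all symbols.

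**Figure D3:**
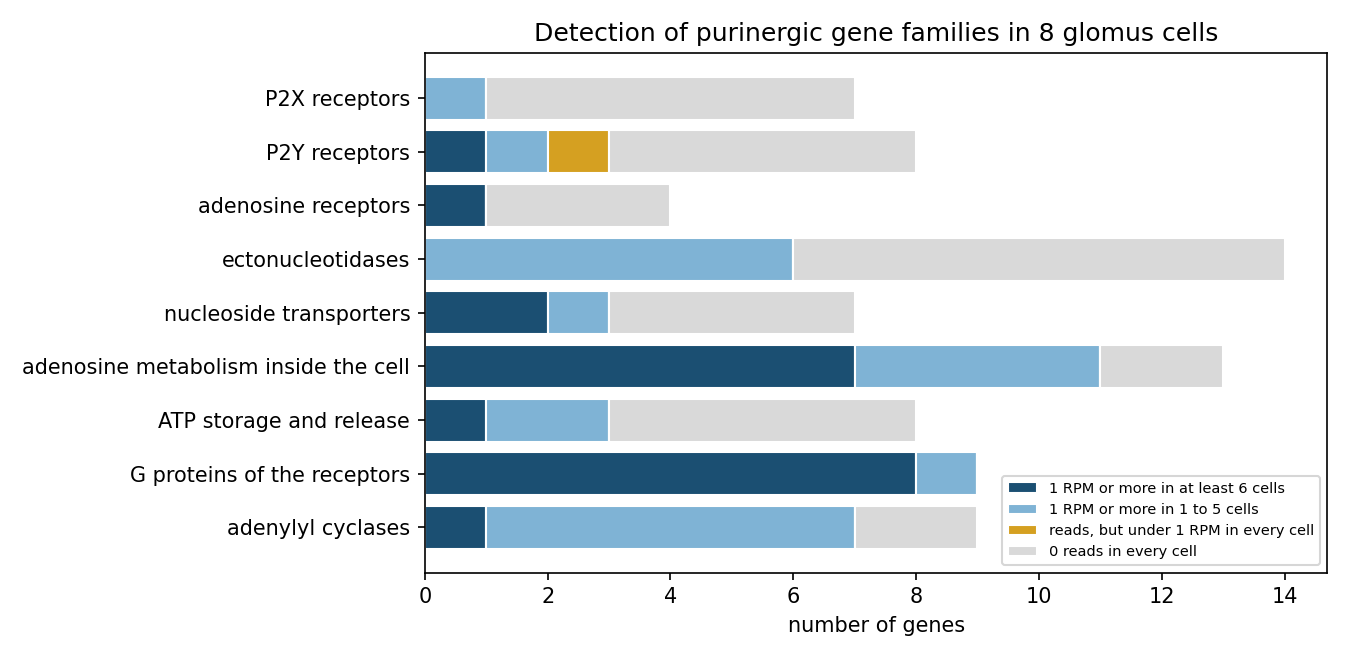
Number of genes (horizontal axis) in each of 9 purinergic gene families, split by how many of the 8 cells detected the gene at 1 RPM or more. The P2X receptors have 0 of 7 genes in at least 6 cells, the ectonucleotidases 0 of 14 and the G proteins 8 of 9.

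Among the genes of adenosine metabolism inside the cell, Ampd3 had the highest median RPM. Ampd3, which encodes an AMP deaminase, was at 218 to 1142 RPM in 7 cells and at 0.447 RPM in cell 5, with a median of 440.2 RPM. Adk, whose product turns adenosine back into AMP, was detected in 5 cells and reached 265 RPM in cell 3. This gene was chosen with its values known. Ada, which encodes adenosine deaminase, had 0 reads in every cell, as did Ampd1.

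Of the 8 genes for ATP loading and release, 1 (12.5%) was detected in at least 6 cells, close to the 14.2% of all symbols. Another 5 of the 8 had 0 reads in every cell, as did 51.7% of all symbols. Slc17a9, which encodes the vesicular nucleotide transporter, had 0 reads in all 8 cells. Panx3, Gja1, Calhm1 and Calhm2, whose products can form large channels, had 0 reads too. Of the other pannexin genes, Panx2 was at 179 RPM in cell 1, 129 RPM in cell 8, 9.30 RPM in cell 2 and under 1 RPM in the other 5 cells, and Panx1 reached 23.5 RPM in cell 4 and 1.85 RPM in cell 7. Lrrc8a, a volume-regulated anion channel gene, was the only gene of this list in at least 6 cells, at a median of 151 RPM, but its level is uncertain, since near-identical copies cover 68.3% of its transcript.

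Genes of the G protein families to which both expressed receptors couple were detected. Gnas, the stimulatory alpha subunit gene through which the Adora2a product signals, was at 6489 to 29971 RPM. The gene has 24 annotated transcripts and its counts are not split between them, so the level is that of the whole gene. Its per-kb median of 4445 rests on the longest transcript, which has 2 exons, so this value is uncertain. Among the inhibitory alpha subunit genes, Gnao1 was detected in 8 of 8 cells at 55.0 to 1540.2 RPM. Gnai2 was at 13.4 to 2124 RPM in 7 cells and at 0.405 RPM in cell 4. Which of these genes serves the P2ry12 product in these cells was not tested. The inhibitory gene with the highest level per kb was Gnai3 in 4 cells (2, 6, 7 and 8), Gnai2 in cells 1 and 5 and Gnaz in cells 3 and 4. In cells 4 and 6 this rests on the approximate length adjustment. Gnao1 had the highest RPM there, at 773 against 512 for Gnaz in cell 4 and 425 against 367 for Gnai3 in cell 6. The leading gene was the same by RPM in the other cells. Cell 5 detected 2 of the 5 inhibitory genes, cell 4 detected 3, and the other cells detected 4 or 5. Adcy1, a calcium-stimulated adenylyl cyclase gene, was detected in 8 of 8 cells at 214 to 1560 RPM. Adcy6, a cyclase gene inhibited by calcium, was detected in 4 cells and reached 393 RPM in cell 6.

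**Figure D4:**
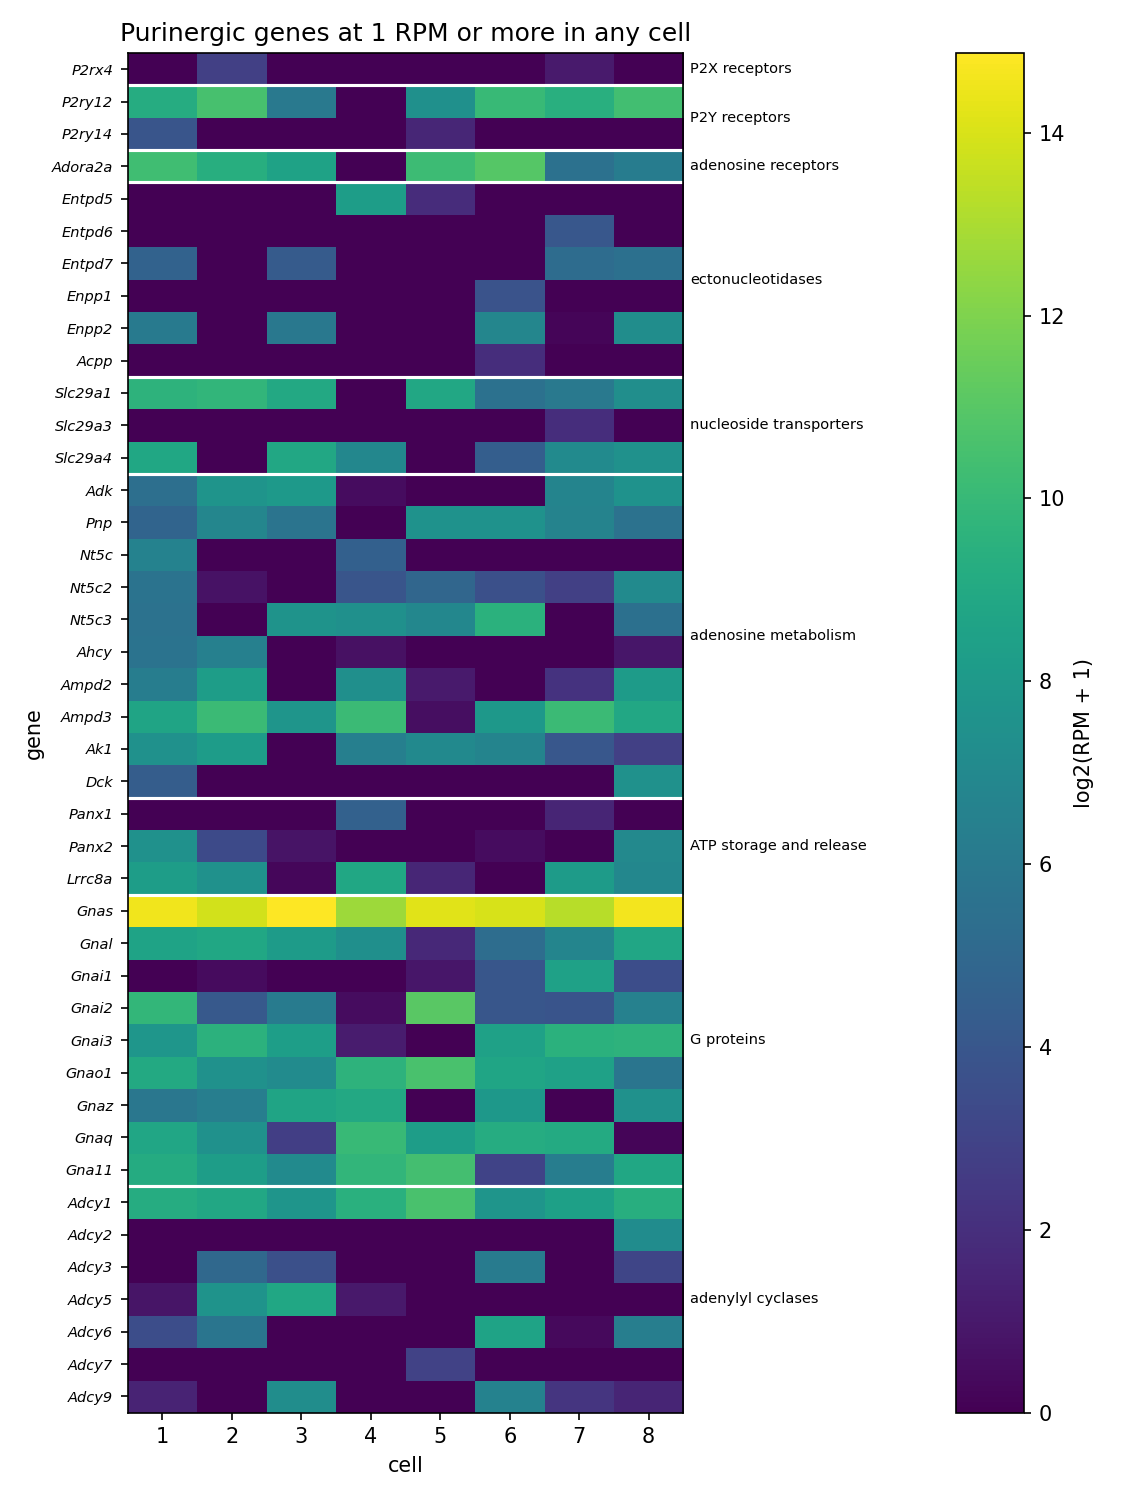
Level in log2(RPM + 1) (colour) of 42 of the purinergic genes that reached 1 RPM in any cell (rows, grouped by family) in the 8 cells (columns). Adora2a, P2ry12 and Slc29a1 form bright rows broken only at cell 4, Gnas is the brightest row in every cell, and the ectonucleotidase rows are lit in few cells.

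The genes whose levels followed Adora2a and P2ry12 most closely over the 8 cells were sought among 3421 other genes detected in at least 6 cells. For Adora2a they included Car2, a carbonic anhydrase gene, with a Spearman rho of 0.98, Ivd (0.95), Snrnp200 (0.93) and Ppp1r9a (0.93). Car2 was at 1320.1 RPM in cell 1, 667 in cell 2, 224 in cell 3, 0 in cell 4, 1369 in cell 5, 4367 in cell 6, 3.55 in cell 7 and 76.9 in cell 8. Like Adora2a it was highest in cell 6, absent from cell 4 and low in cells 7 and 8. For P2ry12 these were Amotl1, Ap3s2 and Rtn4 (0.95 each), Lman1 (0.95) and 1200014J11Rik (0.93). Amotl1 was at 2.83 RPM in cell 4 and 162 RPM or more in the others, with 1353 RPM in cell 2 and 1304 in cell 6. Without cell 4 the rho of Car2 with Adora2a was 0.96 and that of Amotl1 with P2ry12 was 0.93. These are the highest of 3421 values over 8 cells that share depth and amplification steps, and they are a description only.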

How the data were processed

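Single glomus cells were lysed, their RNA was reverse transcribed and amplified, and libraries were made with a transposase kit, per the labels' protocols. Reads were aligned with Bowtie to mm10, per the submitters' processing notes, with version, counter, annotation, strand setting and treatment of multiply matching reads not given in the sources used here. The authors deposited a raw read count and an RPM value for 24060 symbols per cell, per the file headers. RPM was the count per 1000000 counted reads of that cell, which corrects for depth only. Without molecular identifiers, limits from read counts cover counting error only.

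The members and gene lists were chosen with earlier results of these data known. The text names all members, the 2 highest non-members of each family among genes detected in at least 4 cells, the 5 genes most like Adora2a and P2ry12, genes that overlap a member, the selection genes, Olfr78 and the highest gene of each marker list. Other genes are named to complete a family or a count. Positions and lengths came from GENCODE M21 (GRCm38), near-identical copies (95% identity over 50 bases or more) from BLAST+ 2.17.0, and promoter sequences from RefSeq (GRCm38.p6). Levels were summarised with pandas 2.3.3 under Python 3.11.15. The ranking of like genes was tested on simulated data. Alternatives changed the detection limit, scaling, length, pseudocount (1 or 0.1) and the cells included. With 1 sample there was no test. Some genes that the rule takes are not reported here.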

Additional observations from a re-analysis of the deposited data

Results flagged for a closer look

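A cell was taken to stand apart when the distance to its closest neighbour, on the log2(RPM + 1) scale, made up more of the range of the 8 values than Dixon's 95% limit allows. Of 31 series of 8 values, 9 had such a cell. Chance marks about 1 in 20 series of independent, normally distributed values. These series share the same 8 cells, several hold values of 0, and the share over all genes is not given here. Some of these genes were also picked because they follow a member over the same cells. The 9 therefore cannot be set against that rate and are a description only. Cell 4 was the low cell in 5 of them. P2ry12 was at 0 RPM in cell 4 against 63.1 RPM in the next lowest cell, and Slc29a1 at 0 RPM against 46.4 RPM. Ivd was at 0 RPM in cell 4 against 41.3 RPM, Amotl1 at 2.83 RPM against 162 RPM, and Olfr78 at 0.202 RPM against 1203 RPM. Cell 3 was low in Rtn4, at 7.91 RPM against 125 RPM. Cell 5 was low in Ampd3, at 0.447 RPM against 218 RPM. The hybrid cell was low in Uchl1, at 331 RPM against 932 RPM. Within cells, Slc29a1 minus Adora2a in log2(RPM per kb + 1) was -5.12 in cell 6, the lowest of the 8 cells by a wide margin.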

How the results depend on the processing

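Adora2a, P2ry12 and Slc29a1 passed the limit of 6 cells, and the other 7 members did not, under every detection limit tried (any read, more than 3 reads, 10 RPM), with median-ratio scaling and with any 1 cell left out. With 1 cell left out the medians ranged from 379 to 633 RPM for Adora2a, 583 to 664 RPM for P2ry12 and 159.8 to 489 RPM for Slc29a1. Median-ratio scaling gave 498, 588 and 301 RPM. A pseudocount of 0.1 moved the median log2 differences of Adora2a from Adora1 and from Adora2b to 10.88 each (7.57 with 1) and that of P2ry12 from P2ry1 to 11.37 (8.06 with 1), as the silent gene takes its level from the pseudocount. The share of genes at 0 reads in cell 4 was 7.76% when the others had to reach 45 RPM. With a margin of 2 log2 units, 0 members and 2.86% of genes lay outside the range in cell 2, against 2 members and 19.1% with none. Of the 5 genes most like Adora2a, 3 remained by Pearson correlation and 3 without cell 4, and of those most like P2ry12, 1 and 2, so these names depend on the measure. The 79 pathway genes gave 15 to 18 in at least 6 cells with 1 cell left out, against 21, because 6 of 7 cells were then required. The share of all symbols passing 6 of 7 cells is not given here, so these counts have no background. No paired analysis was possible because the labels give 1 group. For counting error only, a gene with 0 reads is limited to at most 0.758 RPM in every cell. This limit does not cover transcripts lost before amplification.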
